A study of Danio rerio with 2 samples.

Results

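The cytosolic ribosomal protein genes of zebrafish were described in whole embryos kept with or without cyproconazole, a triazole fungicide. Members were the rows of the deposited gene table whose symbol starts with rpl or rps and a digit, with rplp0 to rplp2, or with rpsa, without the ribosomal S6 kinase genes (rps6k) and rps19bp1. Of the 23809 genes of the table, 79 met this rule, 46 of the large and 33 of the small ribosomal subunit. The study holds 2 libraries of poly-A-selected RNA, each made from 1 pool of 40 embryos at 3 days post fertilization. The cyproconazole library came from embryos kept in 20 µM cyproconazole from 4 hours post fertilization onwards, and the control library from untreated embryos. Embryos of both pools, the control included, had the genotype SAGFF(LF)53A mitfab692/+, a transgenic line that is heterozygous for a mutation of the pigment cell gene mitfa. With 1 library per group there is no replicate and no test, and each difference below compares these 2 libraries. In RNA of whole embryos, fewer cells of a type and less RNA per cell cannot be told apart.

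The cytosolic ribosome translates messenger RNA and is built of a small subunit, which binds and decodes the message, and a large subunit, which joins amino acids and releases the growing chain through an exit tunnel. Each subunit pairs ribosomal RNA with a set of small, mostly basic proteins that are needed in about equal numbers, and their genes are among the most highly expressed of growing embryos. In vertebrates their messages carry a pyrimidine tract at the 5′ end that ties their translation to the mTOR kinase. Loss of single ribosomal protein genes causes anaemia in people and defects of blood and body growth in zebrafish.

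Ribosomal protein genes were higher in the cyproconazole library nearly throughout, by a small amount. Values are FPKM, fragment counts scaled by transcript length and library size, and a difference is that of log2(FPKM + 1), cyproconazole minus control. The median difference was 0.18 over all 79 members, with quartiles of 0.12 and 0.26. Over the 18618 genes compared the median was 0.02. The difference was above 0 for 77 of 79 members, beside 54.4% of all genes compared. At least 1.1-fold higher on this scale were 50 of the 79 members, beside 26.8% of all genes compared, and 1 was at least 1.1-fold lower, beside 20.5%. A 1.5-fold difference was rare, with 1 of 79 members, beside 3.29% of all genes compared in either direction. Abundant genes are the closer background, since 77 members averaged at least 100 FPKM. Of the 691 genes at that level, these members included, 65.7% were above 0 and 30.7% at least 1.1-fold higher. At least 1.1-fold lower were 13.7%, and past 1.5-fold in either direction 4.05%. Without the members, 61.6% of 614 genes were above 0 and 26.5% at least 1.1-fold higher. Of the 77 members at that level, 76 were above 0 and 49 at least 1.1-fold higher. Most of the members lay close to each other: 58 of 79 were within 0.1 of the members' median difference.

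The whole reads behind the table could be recovered from its other columns, and the members' reads gave the same picture. In genes, the libraries summed to 20726375 reads for cyproconazole and 18067935 for the control. Of these, the members took 1139917 reads in the cyproconazole library, or 5.50% (exact binomial 95% interval 5.49 to 5.51%). In the control library they took 874471 reads, or 4.84% (4.83 to 4.85%). After scaling by a trimmed mean of M values, the ratio of the summed reads was 1.13 (95% interval 1.13 to 1.14). Intervals cover counting error only, not the spread between embryo pools, and without molecular identifiers several reads can stem from 1 molecule. The read ratio was above 1 for 78 of 79 members, beside 51.6% of all genes compared by reads, and its counting interval lay above 1 for 77, beside 15.8%. Among the 691 abundant genes, members included, 49.3% had an interval above 1 and 23.6% one below it. Without the members, 265 of 614 had an interval above 1 and 163 one below it. In the authors' deposited table, whose log2 ratios are shrunken towards 0, 78 of the 79 members had a ratio above 0, with a range of -0.09 to 0.35. Over all 23809 genes of the authors' deposited table, 11976 had a ratio above 0, and the range was -0.38 to 0.37. By log2(FPKM + 1) the members ran from -0.24 to 0.71 and all genes compared from -2.77 to 3.19. The shrunken ranges are therefore not to be compared as sizes of change.

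In level, the members reached from 3.62 to 2077 FPKM in the cyproconazole library and from 4.46 to 1933 FPKM in the control library. All but 2 of them, rpl7l1 and rps8b, had at least 100 FPKM in both libraries, and 59 had at least 1000 FPKM in the cyproconazole library, against 44 in the control library. Of the 100 most abundant genes by FPKM, 41 were members in the cyproconazole library and 37 in the control library. The order of the members by level was largely shared, with a Spearman correlation of 0.97 between the libraries over 79 genes; this is a description across genes, which are not independent replicates. The most abundant member was rps8a, a small-subunit gene, with 2077 FPKM in the cyproconazole library and 1933 FPKM in the control library. Next by mean level were the small-subunit genes rps2 and rps9, described below with the mRNA channel, and then the stalk gene rplp1. The fifth was rps7, a small-subunit gene, with 1773 FPKM in the cyproconazole library and 1621 FPKM in the control library and a read ratio of 1.09 (1.06 to 1.11).

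**Figure D1:**
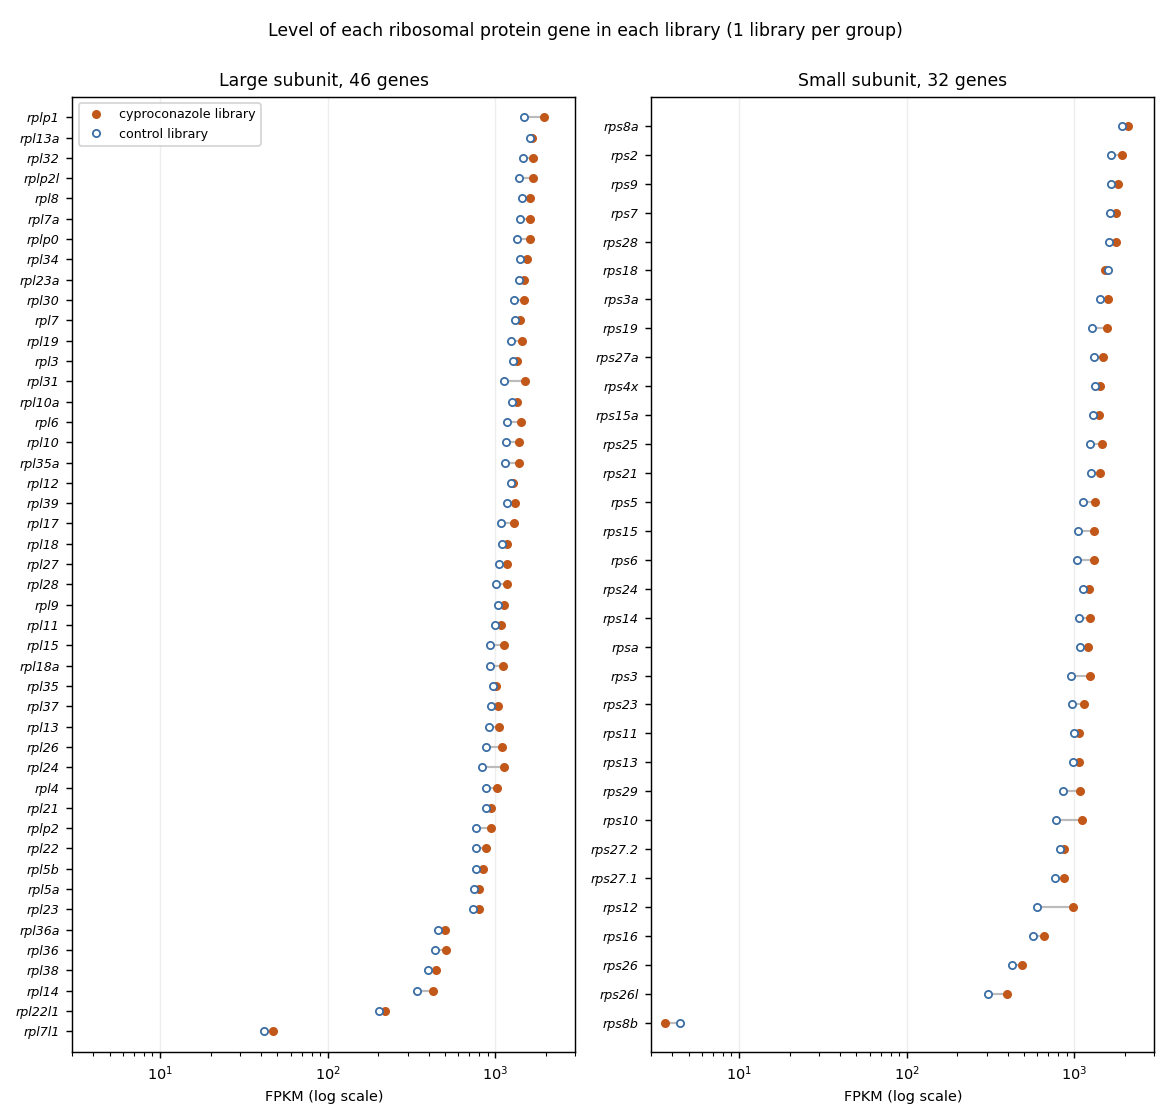
FPKM of 78 members on a log axis, large subunit on the left and small subunit on the right, ordered by mean level; filled points are the cyproconazole library and open points the control library, 1 library each. The filled point lies to the right for 76 of the 78 genes plotted, the exceptions being rps18 and rps8b, and most levels fall near 1000 FPKM.

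The large and the small subunit had nearly equal median differences. Large-subunit genes had a median difference of 0.18 and a median level of 1171 FPKM in the cyproconazole library, against 1043 FPKM in the control library. For the small subunit the median difference was also 0.18, with median levels of 1239.7 FPKM in the cyproconazole library and 1061 FPKM in the control library. At least 1.1-fold higher were 29 of 46 large-subunit and 21 of 33 small-subunit genes, beside 26.8% of all genes compared. Summed over the subunit, FPKM was 52980 in the cyproconazole library and 46333 in the control library for the large subunit, a ratio of 1.14. The small-subunit sums were 40192 FPKM in the cyproconazole library and 35063 FPKM in the control library, a ratio of 1.15. Large-subunit genes therefore made up 56.9% of the members' summed FPKM in both libraries. By reads, the ratio of the sums was 1.124 (1.120 to 1.128) for the large and 1.146 (1.141 to 1.151) for the small subunit. These counting intervals do not overlap. The standard deviation of the differences was larger in the small subunit, 0.16 over 33 genes, against 0.10 over 46 genes of the large subunit. The quartiles did not show this, at 0.13 and 0.24 for the small and 0.11 and 0.26 for the large subunit. Both ends of the range belonged to small-subunit genes, rps12 at 0.71 and rps8b at -0.24. No large-subunit gene was below 0. With FPKM rescaled to a common sum in both libraries, 44 of the 46 were above 0, beside 44.1% of all genes compared.

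**Figure D2:**
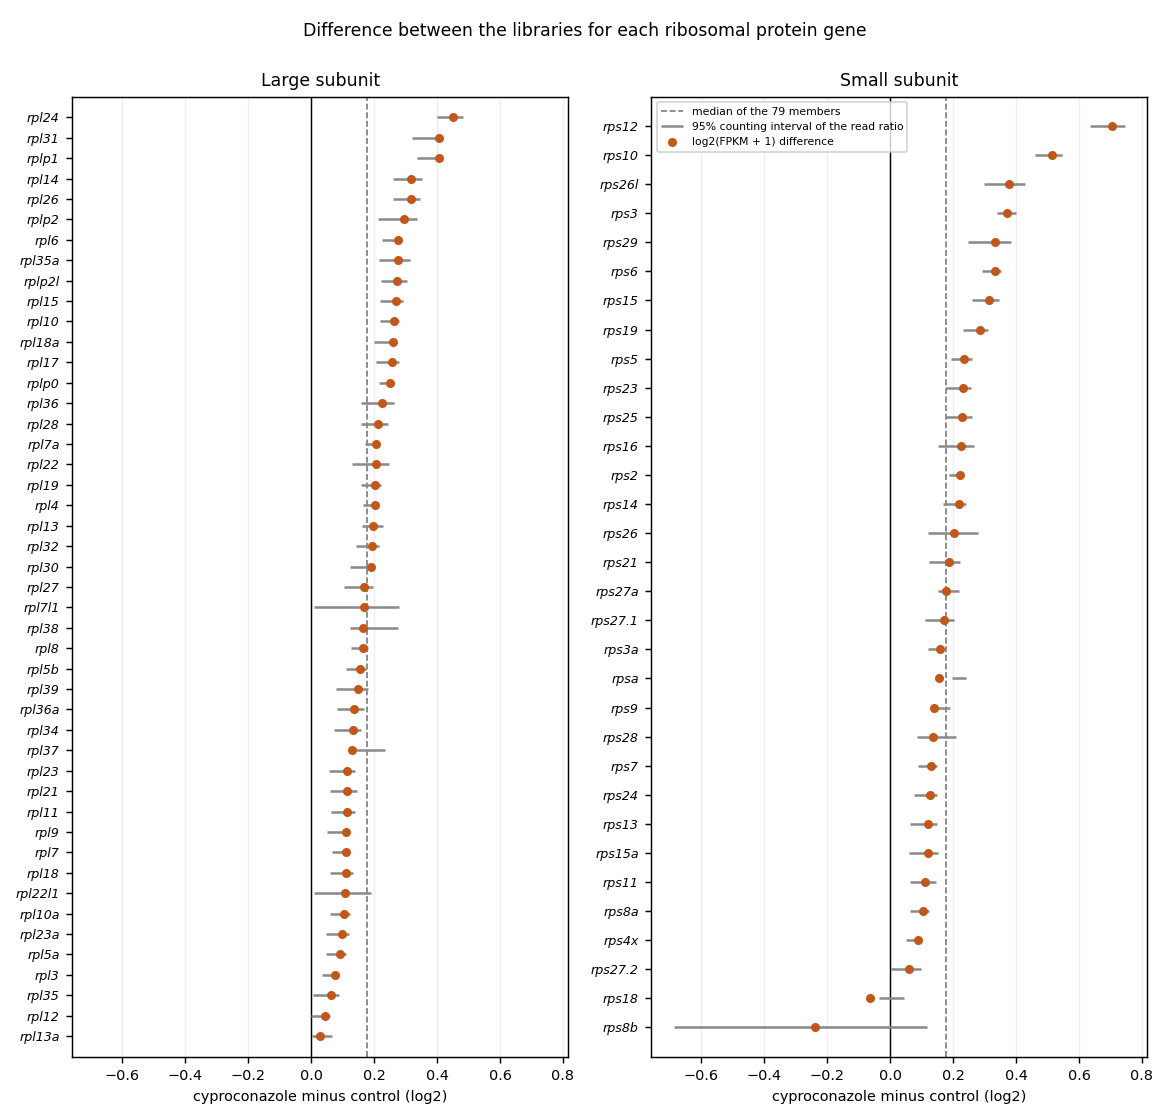
Log2(FPKM + 1) difference, cyproconazole minus control (points), with the 95% counting interval of its read ratio on the same log2 axis (bars), for 78 members; the dashed line is the median of 0.18 over all 79. All 46 large-subunit genes lie to the right of 0 (44 with FPKM rescaled to a common sum), and rps12 and rps10 stand highest among the small-subunit genes.

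At the top of the range stood rps12 (ENSDARG00000036875), which encodes a protein of the beak of the small subunit. It had 982 FPKM in the cyproconazole library and 602 FPKM in the control library, a difference of 0.71, and was the only member past 1.5-fold. Its 7723 reads in the cyproconazole library and 4160 in the control library gave a ratio of 1.61 (1.55 to 1.68). Among the 79 members it ranked 60th by FPKM in the cyproconazole library and 68th in the control library, and its share of the members' summed FPKM was 1.05% in the cyproconazole library, against 0.74% in the control library. The second was rps10 (ENSDARG00000034897), whose product lies in the same beak and is ubiquitylated on stalled ribosomes in human cells. For rps10 the level was 1112 FPKM in the cyproconazole library and 779 FPKM in the control library, with a read ratio of 1.42 (1.37 to 1.46). The third beak protein, encoded with ubiquitin in 1 precursor by rps27a, was at the members' median, with 1489 FPKM in the cyproconazole library, 1317 FPKM in the control library and a read ratio of 1.14 (1.11 to 1.16). The intervals of rps12, rps10 and rps27a do not overlap.

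Next came the large-subunit gene rpl24, whose product forms a bridge between the subunits, with 1130.3 FPKM in the cyproconazole library and 827 FPKM in the control library. Its read ratio was 1.36 (1.32 to 1.396), the highest of the large subunit. The exit-tunnel gene rpl31 had 1492 FPKM in the cyproconazole library and 1125 FPKM in the control library, a read ratio of 1.29 (1.25 to 1.33). The stalk gene rplp1 had a like read ratio, 1.29 (1.26 to 1.32), and rps26l, a gene for a protein near the mRNA exit, 1.29 (1.23 to 1.35). The counting intervals of these 3 overlap, so their order cannot be told. The gene rps6, whose product is the classical substrate of S6 kinase, had 1308 FPKM in the cyproconazole library and 1038 FPKM in the control library, a read ratio of 1.25 (1.22 to 1.28).

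At the other end, rps8b (ENSDARG00000057368) and rps18 (ENSDARG00000100392) were the 2 members with a difference below 0. The gene rps8b was barely expressed, at 3.62 FPKM in the cyproconazole library and 4.46 FPKM in the control library, and its 103 and 109 reads in these libraries gave a ratio of 0.821 (0.621 to 1.09), an interval that holds 1, so this depth could not show a difference. For rps18 the FPKM was lower in the cyproconazole library, 1512 FPKM, against 1581 FPKM in the control library, while its reads gave a ratio of 1.002 (0.975 to 1.03). The large-subunit gene rpl13a, which is often used as a reference gene for quantitative PCR in zebrafish, had 1651 FPKM in the cyproconazole library and 1618 FPKM in the control library, a read ratio of 1.02 (1.003 to 1.05). The stalk-base gene rpl12 had 1269 FPKM in the cyproconazole library and 1231 FPKM in the control library, with a read ratio of 1.02 (1.0 to 1.04). Also low in the range were rps27.2, with a difference of 0.06 and a read ratio of 1.04 (1.002 to 1.07), and the exit-tunnel gene rpl35, with a difference of 0.06 and a read ratio of 1.03 (1.004 to 1.06).

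The members differed among themselves by more than counting error. The standard deviation of the log2 read ratio over the 79 members was 0.12, and the 95% counting interval reached a median of 0.04 to either side. The members' median read ratio was 1.13. Counting intervals lay above that median for 25 members and below it for 28, and held it for 26. Whether this spread would return in a second pair of embryo pools cannot be read from 1 library per group. The difference had no clear relation to level or to transcript length within the members, with Spearman correlations of -0.08 with mean FPKM and -0.14 with the length implied by reads per FPKM, both over the 79 genes and given as descriptions.

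By place in the ribosome, the genes of the stalk, which recruits translation factors to the large subunit, had a median difference of 0.27 over 5 genes. Besides rplp1 and rpl12 above, the stalk base gene rplp0 had 1609 FPKM in the cyproconazole library and 1354 FPKM in the control library, a read ratio of 1.18 (1.16 to 1.197). The acidic stalk proteins that hang on rplp0 are encoded by rplp1, at 1949 FPKM in the cyproconazole library and 1471 FPKM in the control library, and by rplp2 and rplp2l. For rplp2 the levels were 937 FPKM in the cyproconazole library and 764 FPKM in the control library, and for rplp2l 1675 FPKM in the cyproconazole library and 1385 FPKM in the control library. Both had close read ratios, 1.21 (1.16 to 1.26) for rplp2 and 1.2 (1.17 to 1.24) for rplp2l. Within the stalk, rpl12 stood apart, with an interval that overlaps none of the other 4.

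Genes of the mRNA entry channel and the decoding site of the small subunit had a median difference of 0.23 over 5 genes. All 5 were at least 1.1-fold higher, beside 26.8% of all genes compared. With FPKM rescaled to a common sum or centred on the median gene, 4 of 5 were. The entry-channel genes rps2 and rps9 had read ratios of 1.16 (1.14 to 1.18) and 1.12 (1.095 to 1.14). For rps2 the levels were 1921 FPKM in the cyproconazole library and 1646 FPKM in the control library, and for rps9 1813 FPKM in the cyproconazole library and 1645 FPKM in the control library. The third gene of the entry channel, rps3, was further from 1, with 1239.7 FPKM in the cyproconazole library, 958 FPKM in the control library and a read ratio of 1.29 (1.27 to 1.32). At the decoding site, rps15 had 1310.0 FPKM in the cyproconazole library and 1053 FPKM in the control library, a read ratio of 1.23 (1.197 to 1.27). The decoding-site gene rps23 had 1134 FPKM in the cyproconazole library and 966 FPKM in the control library, a read ratio of 1.16 (1.13 to 1.195).

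The particle that joins 5S ribosomal RNA to its proteins had lower differences, with a median of 0.11 over its 3 genes. At least 1.1-fold higher was 1 of the 3, beside 26.8% of all genes compared. The proteins of the particle join the large subunit together with the RNA, as a preformed unit. The gene rpl11 had 1077 FPKM in the cyproconazole library and 996 FPKM in the control library, a read ratio of 1.07 (1.05 to 1.101). Its partner rpl5 is encoded by a pair of genes at nearly equal levels. Of these, rpl5b had 848 FPKM in the cyproconazole library and 761 FPKM in the control library, with a read ratio of 1.104 (1.08 to 1.13). For rpl5a the levels were 796 FPKM in the cyproconazole library and 747 FPKM in the control library, with a read ratio of 1.06 (1.03 to 1.08). All 3 intervals lie above 1 and below the members' median read ratio of 1.13. Around the exit tunnel, 8 genes had a median difference of 0.20, from 0.06 for rpl35 to 0.41 for rpl31. At least 1.1-fold higher were 6 of the 8 (5 of 8 by reads and with the other scalings), beside 26.8% of all genes compared. The small-subunit gene rpsa, also known as the laminin receptor precursor, had 1200.1 FPKM in the cyproconazole library and 1078 FPKM in the control library, a read ratio of 1.16 (1.15 to 1.18).

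Several proteins are encoded by a pair of genes in the table, and in most pairs the balance between the copies was close in the libraries. The sources used here do not say how reads that match both copies were counted, so the values of near-identical copies are uncertain. The gene rpl5b held 51.6% of the pair's FPKM in the cyproconazole library and 50.5% in the control library. For rplp2l the share was 64.1% in the cyproconazole library and 64.4% in the control library. The pair rps26 and rps26l differed more, with rps26l at 44.8% of the pair in the cyproconazole library and 41.8% in the control library, and read ratios of 1.15 (1.09 to 1.21) for rps26 and 1.29 (1.23 to 1.35) for rps26l. Copies of rps27 had read ratios of 1.12 (1.08 to 1.15) for rps27.1 and 1.04 (1.002 to 1.07) for rps27.2, whose share of the pair was 49.97% in the cyproconazole library and 51.9% in the control library. In these last 2 pairs, as for rpl5a and rpl5b, the counting intervals of the copies do not overlap.

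Paralogs with a minor share were also seen. The paralog rpl22l1 had 219 FPKM in the cyproconazole library and 203 FPKM in the control library, with a read ratio of 1.07 (1.01 to 1.14). Its share of the pair's FPKM was 19.9% in the cyproconazole library and 21.02% in the control library. Its partner rpl22, which with rpl22l1 has been tied to the emergence of blood stem cells in zebrafish, had 881 FPKM in the cyproconazole library and 763 FPKM in the control library, with a read ratio of 1.14 (1.09 to 1.19). A further paralog, rpl7l1, had 46.96 FPKM in the cyproconazole library and 41.7 FPKM in the control library, with a read ratio of 1.104 (1.01 to 1.21). The partner rpl7 was at 1405 FPKM in the cyproconazole library and 1302 FPKM in the control library, with a read ratio of 1.07 (1.05 to 1.09). Members whose listed paralog is not among the members were rpl26, rpl39, rpl36a and rps4x, with differences of 0.32, 0.15, 0.14 and 0.09. Least used was rps8b, with 0.17% of the pair's FPKM in the cyproconazole library and 0.23% in the control library, against rps8a with a read ratio of 1.07 (1.05 to 1.09).

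Orthologs of genes mutated in human Diamond-Blackfan anaemia, an inherited failure to make red blood cells, were close to the other members. Their median difference was 0.17 over 20 genes, beside 0.19 over the other 59 members. At least 1.1-fold higher were 12 of the 20 and 38 of the 59, beside 26.8% of all genes compared. In this list rps19, the gene most often mutated in the disease, had 1559 FPKM in the cyproconazole library and 1279 FPKM in the control library, a read ratio of 1.21 (1.18 to 1.24). The lowest of the list was rps27.2 and the highest rps10.

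Ribosomal protein genes that the symbol rule missed had differences on the same side. The reference table of current symbols gives a ribosomal protein name to 5 further rows, which carry a clone name or no symbol in the deposited table. Their median difference was 0.21, and 4 of the 5 were at least 1.1-fold higher, beside 26.8% of all genes compared. The row now named rps20 (ENSDARG00000036044) had 2089 FPKM in the cyproconazole library and 1803 FPKM in the control library, a read ratio of 1.17 (1.14 to 1.195). The small-subunit protein encoded by fau is cut from a precursor that carries a ubiquitin-like part, and its copy faua had 793 FPKM in the cyproconazole library and 688 FPKM in the control library, with a read ratio of 1.14 (1.102 to 1.18). The second copy faub was low, at 16.3 FPKM in the cyproconazole library and 15.7 FPKM in the control library, with a read ratio of 1.03 (0.869 to 1.22).

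FPKM and reads gave nearly the same differences for the members. The largest gap between the FPKM difference and the log2 read ratio of a member was 0.07, and the Spearman correlation between these measures was 0.98 over 79 genes that share the same reads. For rps18 the gap was widest, with -0.06 by FPKM and a read ratio of 1.002 (0.975 to 1.03).

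**Figure D3:**
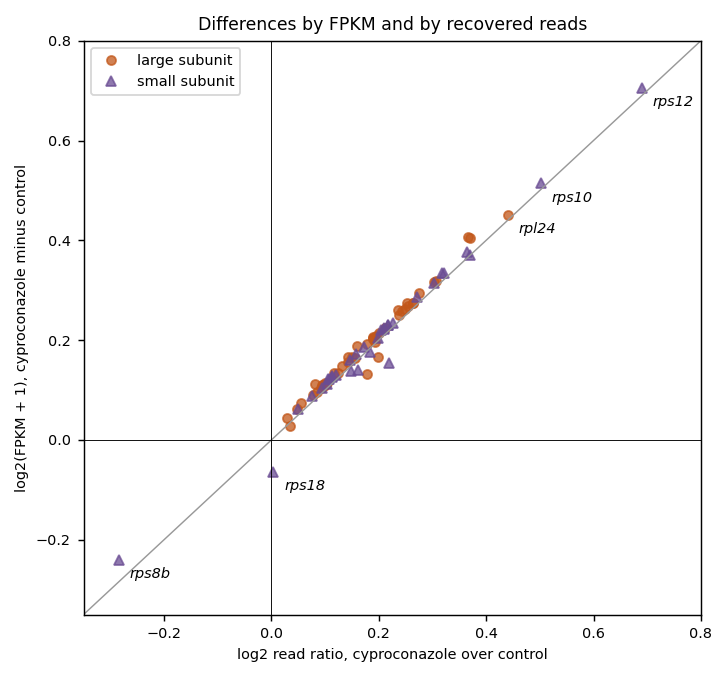
Log2(FPKM + 1) difference of each member against its log2 read ratio, both cyproconazole against control; circles are large-subunit genes, triangles small-subunit genes, and the diagonal marks equal values. Points follow the diagonal from rps8b at the lower left to rps12 at the upper right, and no member departs from it by more than 0.07.

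Other genes of the translation machinery had smaller median differences, and in the lists below the share past 1.1-fold is to be read beside 26.8% upwards and 20.5% downwards of all genes compared. Translation initiation factors had a median of 0.08 over 54 genes, of which 17 (31.5%) passed 1.1-fold upwards, near the share of all genes, and 4 downwards. Above 0 were 41 of the 54, beside 54.4% of all genes compared. The highest with at least 10 FPKM were eif2b3 and eif2b2, subunits of the exchange factor for eIF2, at 0.51 and 0.42, and the lowest were eif4g3b and eif1ad, at -0.44 and -0.24. For eif4g3b the reads gave a ratio of 1.002 (0.9201 to 1.09), and for eif1ad 0.976 (0.840 to 1.13). Elongation factors had a median of 0.07 over 10 genes, where 6 were above 0, 3 (30%) passed 1.1-fold upwards and 1 downwards. The main elongation factor gene eef1a1l1 had 4525 FPKM in the cyproconazole library and 4389 FPKM in the control library, a read ratio of 1.04 (1.03 to 1.05), whereas eef2b, which drives translocation, had 919.8 FPKM in the cyproconazole library and 764 FPKM in the control library, a read ratio of 1.19 (1.18 to 1.21). Among non-ribosomal genes whose mammalian messages carry a terminal oligopyrimidine tract, 9 of 33 (27.3%) passed 1.1-fold upwards, about the share of all genes, and 2 downwards, with a median of 0.08. Above 0 were 25 of these 33, beside 54.4% of all genes compared. Here eef1db and btf3 were highest, at 0.32 and 0.28, and pabpc1b and eef1a1a lowest, at -0.51 and -0.16. The read ratio was 0.862 (0.812 to 0.914) for pabpc1b and 0.974 (0.879 to 1.08) for eef1a1a. The ribosome-bound scaffold protein Rack1, listed as gnb2l1, had 1489.8 FPKM in the cyproconazole library and 1236 FPKM in the control library, and its read ratio of 1.18 (1.16 to 1.197) was within the range of the small-subunit genes.

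Genes that assemble ribosomes were close to all genes compared. The ribosome biogenesis list had a median of 0.04 over 55 genes (-0.01 with FPKM rescaled to a common sum), where 15 passed 1.1-fold upwards and 5 downwards, or 27.3% higher beside 26.8% of all genes compared. The extremes with at least 10 FPKM were the small-subunit assembly genes ltv1 and utp18, at 0.38 and 0.32, and nolc1 and sbds, at -0.44 and -0.24. By reads utp18 had a ratio of 1.502 (1.23 to 1.84), while ltv1 had 1.04 (0.926 to 1.18). At the lower end, the read ratio was 0.910 (0.835 to 0.992) for nolc1 and 0.834 (0.722 to 0.963) for sbds. Genes of mTOR and S6 kinase signalling had a median of -0.03 over 21 genes, where 3 passed 1.1-fold upwards and 6 downwards. In this list eif4e1c and rheb were highest, at 0.33 and 0.19, and rps6kb1b and eif4ebp3 lowest, at -0.26 and -0.19. Reads gave another side for rps6kb1b, with a ratio of 1.11 (1.03 to 1.203), and for eif4e1c, with 0.974 (0.892 to 1.06). The read intervals of rheb, 1.16 (0.973 to 1.38), and eif4ebp3, 0.857 (0.705 to 1.04), hold 1.

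Other complexes of many small subunits gave medians between those of the members and of all genes. The mitochondrial ribosome had a median of 0.09 over its 73 genes, where 25 (34.2%) passed 1.1-fold upwards and 2 downwards. Their extremes with at least 10 FPKM were mrpl20 and mrps6, at 0.63 and 0.48, and mrps33 and mrpl11, at -0.40 and -0.15. For mrpl11 the reads gave another side, with a ratio of 1.02 (0.895 to 1.16). Proteasome genes, taken by symbol, had a median of 0.09 over 40 genes, where 12 (30%) passed 1.1-fold upwards and 1 downwards. Counted in both is psmc3ip, at 0.55 and under 10 FPKM, which encodes a recombination protein and no proteasome subunit; without it, 11 of 39 passed upwards. With at least 10 FPKM, psmd3 and psmb6 were highest, at 0.43 and 0.41, and psmd11b and psmd8 lowest, at -0.14 and -0.09. Nuclear genes of the respiratory chain had a median of 0.07 over 73 genes, where 21 (28.8%) passed 1.1-fold upwards and 2 downwards. With at least 10 FPKM, cox7a1 and ndufa6 were highest, at 0.49 and 0.41, and ndufa9a and ndufa3 lowest, at -0.21 and -0.18. By reads, cox7a1 had a ratio of 1.18 (0.800 to 1.76), ndufa9a 0.979 (0.920 to 1.04) and ndufa3 0.867 (0.752 to 1.0001), intervals that hold 1. For ndufa6 the read ratio was 1.32 (1.198 to 1.47). The shares of the proteasome and the respiratory chain past 1.1-fold upwards lie near that of all genes. Above 0 were 31 of 40 proteasome, 53 of 73 respiratory chain and 53 of 73 mitochondrial ribosome genes, beside 54.4% of all genes compared. Beside these lists, the cytosolic ribosomal protein genes had the highest median.

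**Figure D4:**
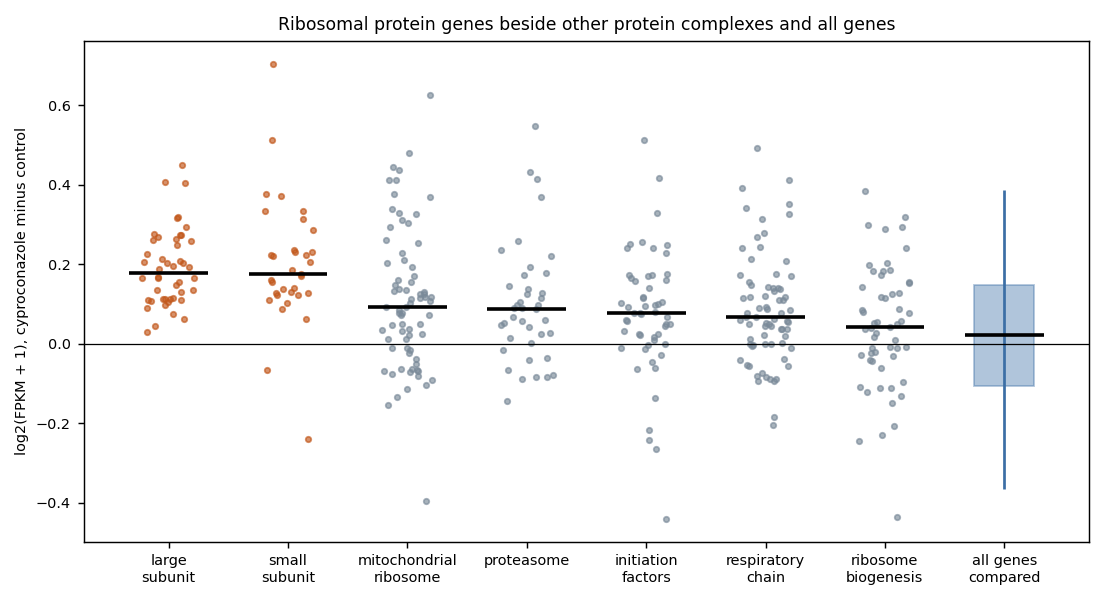
Log2(FPKM + 1) difference, cyproconazole minus control, of each gene of 7 lists (points, with a black bar at the list's median); for all genes compared the box spans the quartiles and the line the 5th to 95th percentile. The large and small subunits of the cytosolic ribosome, both with a median of 0.18, lie above the other lists, whose medians run from 0.04 to 0.09.

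Markers of some cell types differed between the libraries, and other abundant genes are given here by transcript length. Among genes outside the members with at least 100 FPKM on average, the 251 with an implied length under 1 kb had a median difference of 0.05, the 216 of 1 to 2 kb 0.07, and the 147 of 2 kb or more -0.03. The 70 members under 1 kb had a median of 0.19. Markers of red blood cells had a median difference of 0.33, with all 14 measured rows above 0 and a summed level of 9131 FPKM in the cyproconazole library, against 7289.5 FPKM in the control library. Markers of proliferating cells had a median of 0.11, with 16 of 17 rows above 0 and a summed level of 806 FPKM in the cyproconazole library, against 748 FPKM in the control library. For both lists, the share above 0 is to be read beside 54.4% of all genes compared. At least 1.1-fold higher were 11 of the 14 red-cell rows and 7 of the 17 proliferation rows, beside 26.8% of all genes compared. With FPKM rescaled to a common sum, 11 of the 14 and 2 of the 17 were, beside 20.8%. By reads, counting intervals lay above 1 for 10 of the 14 red-cell rows and 8 of the 17 proliferation rows, beside 15.8% of all genes compared. Of the cartilage markers, 9 of 9 were at least 1.1-fold lower, beside 20.5% of all genes compared. They summed to 754 FPKM in the cyproconazole library and 1552 FPKM in the control library. The other marker lists had medians near that of all genes compared. These were 0.07 for muscle (10 of 17 above 0), -0.05 for neurons (5 of 14) and -0.01 for liver and yolk (5 of 11). By reads the median log2 ratios were 0.06, -0.005 and 0.02 in the same order. Read ratios were above 1 for 10 of 17, 7 of 14 and 6 of 11, beside 51.6% of all genes compared by reads. The part of these markers and of length in the members' difference was not tested. In keeping with whole embryos, the measured markers of muscle (17), neurons (14), cartilage (9) and liver and yolk (11) all had at least 1 FPKM in both libraries. Of the 14 red-cell rows, 12 did. Measured rows had already passed a mean count of 25 and an FPKM above 0, which favours this. The muscle gene myhz1.1 was listed at 0 FPKM in both, although 89128 reads in the cyproconazole library and 87539 in the control library were recovered for it, so this 0 is no measure of its level.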

How the data were processed

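The libraries, 1 per group, hold polyadenylated RNA of pooled whole zebrafish embryos. Cufflinks 2.1.1, HTSeq 0.6.1, Picard 1.29, SAMtools, TopHat2 2.0.4 and the GRCz10 build are named in the submitters' processing notes, without role or order. The authors deposited 1 table, which gives an FPKM value for each library, per the file headers. Its mean count is the average of both libraries after division by size factors, a signal as deposited. The remaining deposited columns are a shrunken log2 ratio with its standard error, a score (ratio over error) and a p-value. The p-values have no replicate behind them and were left out. The sources used here name neither strand setting nor annotation, so antisense and overlapping genes could not be told apart.

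Genes needed a mean count of at least 25 and an FPKM above 0 in both libraries. Differences are of log2(FPKM + 1), which understates the change of low genes. Whole reads were recovered: each mean count is, within a tolerance of 0.01, a whole number of steps, of which a cyproconazole read is worth 59 and a control read 68. Several pairs of reads can give 1 mean count. Among several, the pair kept had to give the deposited ratio and standard error under negative binomial shrinkage. It had to do so within 1e-05 and 10 times better than the next pair. Genes with only 1 possible pair, 7180 in number, kept that pair without this criterion. The recovery gave reads for 23790 genes (99.9%), all 79 members included, and was checked on simulated data. For read ratios, libraries were scaled by the TMM method, with 30% of log ratios and 5% of expression values trimmed. Intervals are exact conditional binomial at 95%. Python 3.11.15, NumPy 2.4.6, pandas 2.3.3 and SciPy 1.17.1 were used. The reference table gave a current symbol for 21800 identifiers.

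The members, lists and tests were chosen with earlier results of these data known. Named members are the 6 highest, the 6 lowest, the 5 most and the 3 least abundant, those of the stalk, mRNA channel, 5S and paralog lists, and rps6, rpsa, rps19 and rps27a. Of each other list the 2 highest and the 2 lowest genes with at least 10 FPKM were eligible, and a few always named genes. The cell marker lists are given as medians, counts or sums. Other names were chosen after their values were seen. A few genes that this rule or the plots would name are not reported here. Alternatives were other added values, scalings, filters and member sets.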

Additional observations from a re-analysis of the deposited data

How the results depend on the processing

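No paired analysis was possible because neither group holds more than 1 library, which also left none to leave out. The median difference of the members was 0.18, and it was 0.12 with FPKM rescaled to a common sum (TPM), with 0.12 for the large and 0.12 for the small subunit. That scaling moved the median of all genes compared to -0.03. It left 75 of 79 members above 0, beside 44.1% of all genes compared, and 35 at least 1.1-fold higher, beside 20.8%. Under the other alternatives the members' median lay between 0.16 and 0.19, and the large and small subunits stayed within 0.014 of each other. The ratio of the members' summed FPKM was 1.145. It was 1.133 by recovered reads with a trimmed mean of M values, 1.136 with total reads, 1.131 with the deposited size factors, 1.128 centred on the median gene, 1.099 with TPM, and 1.130 as the median of the members' ratios. The 5S particle, with 1 of 3 genes at least 1.1-fold higher, had 0 with TPM or when centred on the median gene. No alternative run put the members' median, or that of either subunit, on the other side of 0. Adding the 5 rows named only in the reference table, chosen after the data were seen, gave 0.18 and 54 members at least 1.1-fold higher. Leaving out members whose FPKM and read ratios differ by more than a set gap removed none, since the largest gap was 0.07. That alternative therefore repeats the main values. With 103 reads in the cyproconazole library and 109 in the control library, rps8b was the one member too shallow for a difference of the members' median size to show.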
